A study of Mus musculus with 19 samples.

Results

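Cytochromes P450 are haem enzymes that insert an oxygen atom into drugs, fatty acids, sterols and steroids. Every gene whose symbol has the form Cyp, family number, subfamily letter and gene number was taken, in the mouse livers from the embryo table and in the mouse tumours by Ensembl identifier at a mean of at least 1 CPM (reads of a gene per 1000000 reads of the library) over the 10 tumours. Cyp2e1 and Cyp1a2 were left out of the set. The rule gave 64 genes, of which 53 were among the 13549 genes of the embryo table and 52 among the 12829 tumour genes that passed the minimum, with 41 in both. By family number the 53 embryo genes comprised 32 of the xenobiotic families (2 and 3), 12 of the fatty acid family 4, 6 of the sterol and bile acid families (7, 8, 27, 39 and 46) and 1 each of the steroid hormone, retinoid and other classes. The 52 tumour genes comprised 34 xenobiotic genes (families 1 to 3), 9 fatty acid, 5 sterol and bile acid, 3 steroid hormone genes and 1 other. Just inside the tumour minimum stood Cyp2c40 at 1.11, Cyp11a1 at 1.25 and Cyp2d11 at 1.63 CPM, and just outside it Cyp11b2 at 0.927, Cyp11b1 at 0.845 and Cyp26b1 at 0.835 CPM.

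In the hepatocyte most P450 enzymes sit in the endoplasmic reticulum and take electrons from the reductase Por, while a few such as Cyp27a1 are mitochondrial and use ferredoxin. Family 2 and 3 enzymes clear drugs and other foreign compounds and hydroxylate steroids, and many are induced through the nuclear receptors Nr1i2 (PXR) and Nr1i3 (CAR). Family 4 enzymes hydroxylate the end of fatty acid chains and the Cyp4a genes are targets of the receptor Ppara, while families 7, 8, 27 and 39 turn cholesterol and its oxidised forms into bile acids. Many of these genes lie in tandem clusters of similar copies, and their levels rise in the liver around birth.

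Fibrolamellar carcinoma is a rare liver cancer whose cells join DNAJB1, which encodes a chaperone, to PRKACA, which encodes a catalytic part of the kinase PKA, and the study modelled it in mice. One experiment compared day E18.5 livers of 5 control embryos with those of 4 embryos that carried Rosa26 LSL-DNAJB1-PKA-GFP and Alb-Cre, in which Cre, made from the Albumin promoter from mid-gestation on, removes a stop before the fusion cDNA. The controls are labelled only as control, and whether they carried Cre or the unrecombined allele is not given. The other compared 5 vehicle with 5 palbociclib tumours grown from 1 mouse line, FL8, whose cells were set in methacrylated gelatin and placed under the flank skin of immunodeficient NSG mice. At a mean tumour size of 75 mm3 the mice were assigned at random to palbociclib, which inhibits the cell cycle kinases CDK4 and CDK6 (75 mg/kg by mouth for 3 days, then 4 days off), or to the carrier, 0.5% methocel. The series text calls the carrier group PBS. The labels do not say whether the 10 tumours came from separate mice or the embryos from separate litters, so p-values measure the spread between these samples.

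Embryo libraries held 7660736 to 23144891 counts in the controls and 13527381 to 45591301 in the fusion livers, and the tumours 2955729 to 33863983 reads with vehicle and 24857723 to 43141761 with palbociclib. Prkaca, whose counts can include the fusion transcript, ranged from 36.4 to 50.0 CPM in controls and was 114, 73.4, 54.0 and 52.5 CPM in fusion livers 6 to 9 (log2 fold change 0.78, SE 0.22, adjusted p = 0.0379, edgeR). All 10 listed hepatocyte markers were detected in both experiments, with summed levels of 174423 to 217242 CPM in control and 188772 to 225771 CPM in fusion livers. The embryo libraries split into controls 1 and 2 with fusion livers 8 and 9, where ribosomal protein genes took 9.68 to 10.1% of counts, and the other 5 libraries, where they took 6.16 to 7.85%. In the set of low ribosomal share all controls were male and all fusion livers female by Xist, so sex and genotype cannot be told apart there, and fusion 9 was the only male fusion liver. Vehicle tumour 1 stood apart with 46.6% of its reads on mitochondrially encoded genes against 1.24 to 6.47% in the other 9, and vehicle tumour 5 had the lowest depth.

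In fusion livers 4 bile acid genes, 4 Cyp4a genes and 3 of 6 genes of the Cyp2c cluster fell, while a short list headed by Cyp4f39, Cyp3a44 and Cyp2a5 rose. Of the 48 members that passed the filter on low counts, 19 were lower and 6 higher at an adjusted p under 0.05 (edgeR), and 23 were not called. Cyp4f39 and Cyp2u1 passed that filter through the fusion livers and Cyp2j9 through the controls, the group where each was higher. Over all 13316 genes tested 12.8% were called, 6.81% lower and 5.99% higher. The median log2 fold change was -0.71 over the tested members and -0.01 over all genes. Control and fusion values did not overlap for 27 of the 53 members, beside 16.9% of all tested genes, with 21 members lower (7.6% of all genes) and 6 higher (9.26%). The 5 members that were not tested, Cyp46a1, Cyp2b13, Cyp2d11, Cyp3a57 and Cyp3a59, stayed under 1 CPM in all 9 livers. The 27 were counted over all 53 members, these 5 included, and the 16.9% over tested genes only. Cyp46a1 was among the 27. Summed over the 53 members, controls held 2770 to 3576 CPM and fusion livers 1652 to 2356 CPM. In whole-tissue RNA, fewer cells that express a gene and less RNA per cell cannot be told apart.

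**Figure D1:**
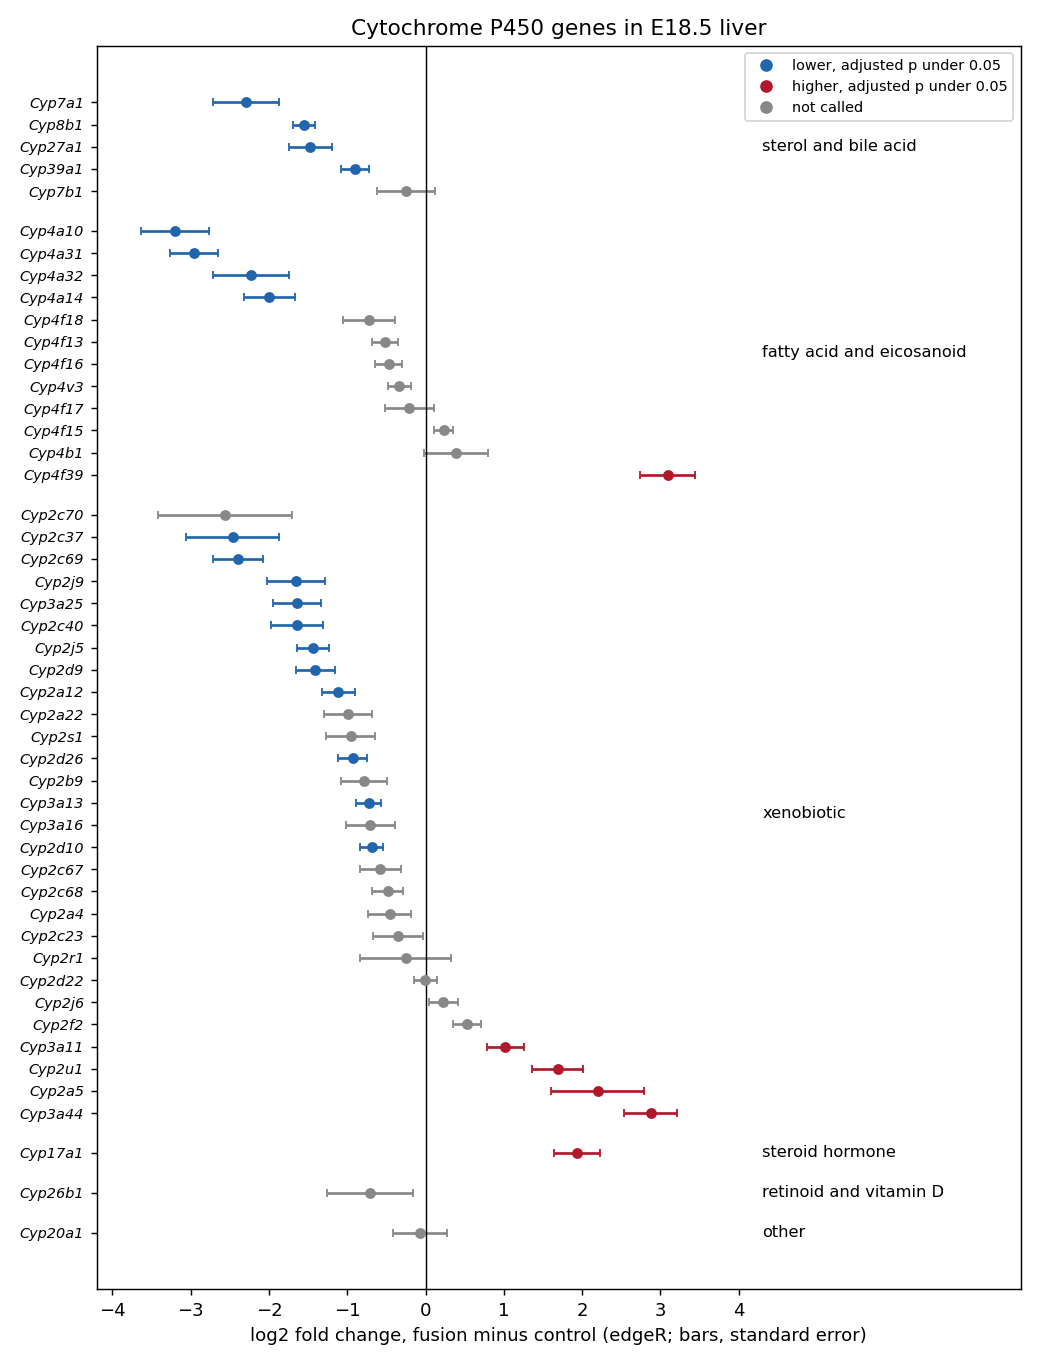
Log2 fold change of fusion over control liver at E18.5 for the 48 tested P450 genes, grouped by role, with standard errors from edgeR; colours mark the call. Cyp4a10 at -3.20 and Cyp4a31 at -2.96 lie farthest left and Cyp4f39 farthest right at 3.09.

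Among the roles with more than 1 tested gene, bile acid synthesis had the largest share of calls. Of 5 tested members 4 fell and none rose, and the summed level of the 6 measured members was 231 to 321 CPM in controls and 93.7 to 149 CPM in fusion livers, without overlap. Cyp7a1 (chr4:6265612-6275633, mm10), the rate-limiting enzyme of bile acid synthesis, stood at 22.9, 40.3, 28.1, 30.1 and 27.4 CPM in controls 1 to 5 and 3.94, 2.53, 4.38 and 14.0 CPM in fusion livers 6 to 9. Every fusion liver was below every control, and fusion 9 was well above the other 3 fusion livers (log2 fold change -2.30, SE 0.42, adjusted p = 0.00564, edgeR).

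Cyp8b1 (chr9:121914356-121916305), which directs synthesis towards cholic acid, measured 108, 101, 141, 119 and 118 CPM in controls 1 to 5 and 42.2, 38.1, 34.1 and 47.1 CPM in fusion livers 6 to 9. The groups were well separated and the fusion livers close to each other (log2 fold change -1.56, SE 0.14, adjusted p = 8.32e-05, edgeR). Cyp27a1 (chr1:74713574-74737892), the mitochondrial enzyme that oxidises the sterol side chain and starts the alternative pathway, measured 26.8, 33.5, 63.5, 63.0 and 65.2 CPM in controls 1 to 5 and 15.8, 17.6, 16.2 and 24.4 CPM in fusion livers 6 to 9. Controls 1 and 2 were lower than the other 3 controls, and control 1 was just above fusion 9, the highest fusion liver (log2 fold change -1.47, SE 0.27, adjusted p = 0.00603, edgeR).

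Cyp39a1, an oxysterol hydroxylase of the alternative pathway, measured 72.2, 78.6, 87.3, 96.9 and 84.5 CPM in controls 1 to 5 and 34.7, 34.4, 50.3 and 62.9 CPM in fusion livers 6 to 9. Fusion livers 6 and 7 were lowest and fusion 9 nearest the controls (log2 fold change -0.90, SE 0.18, adjusted p = 0.01, edgeR). Cyp7b1, the other oxysterol hydroxylase, was below 1 CPM in all 9 livers, its groups overlapped and it was not called (log2 fold change -0.25, adjusted p = 0.695). Cyp46a1, the cholesterol hydroxylase of neurons, was 0.330 to 0.757 CPM in controls and 0.0769 to 0.301 CPM in fusion livers, too low to be tested.

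Cyp2c70 (chr19:40153353-40187333) belongs to family 2 by number but forms the muricholic acids of mouse bile. Its values were 202, 229, 209, 261 and 239.9 CPM in controls 1 to 5 and 4.65, 7.76, 10.6 and 134 CPM in fusion livers 6 to 9. Fusion livers 6 to 8 were far below every control, whereas fusion 9 was nearer to the controls than to the other fusion livers. The difference was not called over all 9 livers (log2 fold change -2.57, SE 0.86, adjusted p = 0.0708, edgeR). With fusion 9 left out it was called, at -4.94 on the log2 scale and an adjusted p of 6.06e-06.

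The omega-hydroxylases of the Cyp4a cluster on chromosome 4 held the 2 largest falls of the set, those of Cyp4a10 and Cyp4a31. Of the 5 genes in the cluster, 4 fell and Cyp4b1 was not called (log2 fold change 0.39, adjusted p = 0.573). Cyp4a10 (chr4:115518264-115533649) measured 15.4, 17.8, 41.4, 25.0 and 36.0 CPM in controls 1 to 5 and 2.61, 2.35, 1.08 and 6.01 CPM in fusion livers 6 to 9. Fusion 9 was again the highest fusion liver and the groups did not overlap (log2 fold change -3.20, SE 0.44, adjusted p = 0.00135, edgeR).

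Cyp4a14, the family 4 gene of the highest level per length in controls (26.1 CPM per kilobase of exon), measured 61.6, 80.2, 99.4, 43.5 and 54.2 CPM in controls 1 to 5 and 9.76, 14.3, 15.8 and 29.5 CPM in fusion livers 6 to 9. The same order held, with fusion 9 highest among the fusion livers and below the lowest control (log2 fold change -1.996, SE 0.33, adjusted p = 0.00314, edgeR). Cyp4a31 was 11.6 ± 3.76 CPM (SD, n = 5) in controls and 1.45 ± 0.507 CPM (SD, n = 4) in fusion livers, without overlap (log2 fold change -2.96, adjusted p = 0.000235). Cyp4a32 was 3.39 ± 1.84 and 0.686 ± 0.429 CPM and its groups overlapped (log2 fold change -2.24, adjusted p = 0.0134). Of the 100-base windows in Cyp4a32 exons 18.2% occur in another gene and of those in Cyp4a10 12.2%, so part of their reads may be shared, whereas Cyp4a14 has no shared window.

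Of the 5 Cyp4f genes on chromosome 17, 1 rose and 4 were not called. Cyp4f39 (chr17:32452723-32493320), which in skin hydroxylates very long fatty acids for ceramides, measured 0.349, 0.276, 0.424, 0.371 and 0.827 CPM in controls 1 to 5 and 5.86, 2.59, 4.85 and 3.04 CPM in fusion livers 6 to 9. All controls were under 1 CPM and all fusion livers at 2.59 CPM or more, and no other member rose as much (log2 fold change 3.09, SE 0.35, adjusted p = 0.000448, edgeR). Its controls alone were too low for the filter on low counts, which it passed through the fusion livers. The other 4 Cyp4f genes of the cluster ranged from -0.52 for Cyp4f13 to 0.23 for Cyp4f15 on the log2 scale, 3 of them below 0. Cyp4f15 led family 4 per length in the fusion livers, at 19.8 CPM per kilobase of exon against 16.6 in controls, and was 37.8 ± 3.50 CPM (SD, n = 5) in controls and 45.1 ± 6.94 CPM (SD, n = 4) in fusion livers. Cyp4f18, on another chromosome and known for hydroxylating leukotrienes in neutrophils, was not called (log2 fold change -0.72, adjusted p = 0.176), nor was Cyp4v3.

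**Figure D2:**
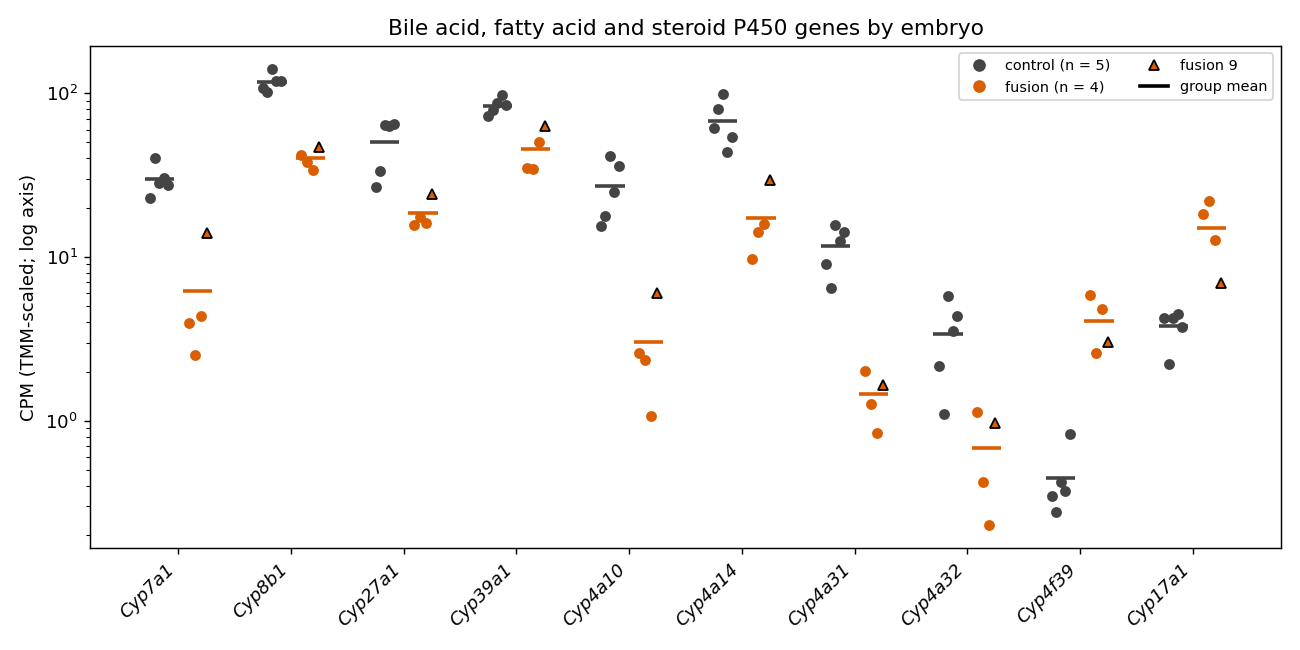
CPM on a log axis for 10 bile acid, fatty acid and steroid P450 genes in each control and fusion liver; bars are group means and triangles mark fusion 9. Fusion 9 is the highest fusion liver for Cyp7a1, Cyp4a10 and Cyp4a14, and Cyp4f39 and Cyp17a1 are higher in all fusion livers than in all controls.

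Within the Cyp3a cluster on chromosome 5 neighbouring genes moved in opposite directions. Cyp3a11 (chr5:145854426-145879964), the main hepatic drug-metabolising Cyp3a enzyme of the mouse, measured 54.8, 72.9, 119, 124 and 83.2 CPM in controls 1 to 5 and 237, 162, 199 and 144 CPM in fusion livers 6 to 9. The lowest fusion liver was above the highest control (log2 fold change 1.02, SE 0.24, adjusted p = 0.0183, edgeR). Without fusion 8 the adjusted p was 0.0507. Cyp3a44 (chr5:145773983-145805874), a form that is biased to females in adult liver, measured 1.75, 3.59, 4.097, 3.17 and 2.57 CPM in controls 1 to 5 and 34.6, 24.003, 20.3 and 9.74 CPM in fusion livers 6 to 9. Fusion 9, the male fusion liver, was the lowest of the 4 and still above every control (log2 fold change 2.87, SE 0.34, adjusted p = 0.000531, edgeR).

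Cyp3a25 lay on the other side, at 13.8, 20.3, 46.6, 30.3 and 29.2 CPM in controls 1 to 5 and 7.72, 7.28, 11.7 and 10.1 CPM in fusion livers 6 to 9. Every fusion liver was below the lowest control (log2 fold change -1.64, SE 0.31, adjusted p = 0.00635, edgeR). Within the libraries of high ribosomal share the log2 fold change was -0.64 and was not called. Cyp3a16, a fetal form, measured 35.2, 48.3, 81.1, 83.9 and 80.8 CPM in controls 1 to 5 and 55.9, 49.5, 20.3 and 37.0 CPM in fusion livers 6 to 9. Its groups overlapped and it was not called (log2 fold change -0.71, SE 0.31, adjusted p = 0.157, edgeR). Cyp3a13, which lies outside the cluster on the same chromosome, fell slightly (log2 fold change -0.72, adjusted p = 0.0141). Whether the changes of Cyp3a44 and Cyp3a16 differ from each other was not tested. Shared windows made up 5.37% of Cyp3a44 and 0.123% of Cyp3a16.

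The promoters of the 4 tested cluster genes are shown because these neighbours moved apart. Each line gives the bases from 250 to 111 before the RefSeq start (GRCm38.p6, minus strand, 5′ to 3′), with the letters AGGTCA, a core that nuclear receptors bind, and their reverse complement TGACCT in capitals.
Cyp3a11 (chr5:145879965-145880104): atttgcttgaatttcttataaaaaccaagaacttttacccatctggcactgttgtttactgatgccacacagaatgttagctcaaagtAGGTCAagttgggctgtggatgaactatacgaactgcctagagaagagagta
Cyp3a44 (chr5:145805985-145806124): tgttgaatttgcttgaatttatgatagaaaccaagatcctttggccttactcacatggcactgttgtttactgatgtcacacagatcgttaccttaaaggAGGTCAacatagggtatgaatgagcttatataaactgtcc
Cyp3a16 (chr5:145469834-145469973): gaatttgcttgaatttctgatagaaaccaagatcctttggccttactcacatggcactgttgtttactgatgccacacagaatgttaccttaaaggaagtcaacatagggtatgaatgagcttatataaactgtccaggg
Cyp3a25 (chr5:146009729-146009868): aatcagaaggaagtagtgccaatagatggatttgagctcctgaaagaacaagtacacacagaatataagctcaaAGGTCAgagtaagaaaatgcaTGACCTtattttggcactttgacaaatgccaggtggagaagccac
In global alignments of the 250 bases before the start, Cyp3a44 and Cyp3a16 were 92.9% identical over 254 positions. Cyp3a11 was 72.5% and 76.6% identical to them, and Cyp3a25 between 55.6 and 57.4% identical to the other 3. Gaps, also those at the ends, counted as differences. The AGGTCA in Cyp3a44, at bases 101 to 106 of the printed stretch, is interrupted in Cyp3a16 by the substitution G102A, counted from 1 at the 5′ end of the Cyp3a44 stretch. The 2 genes that rose carry 1 copy each and Cyp3a25, which fell, carries 2 copies in opposite orientation.

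In the Cyp2c cluster on chromosome 19 all 6 measured genes had a log2 fold change below 0, and 3 of them were called lower. Cyp2c69 measured 90.4, 97.9, 195, 115 and 117 CPM in controls 1 to 5 and 15.7, 15.9, 24.1 and 39.6 CPM in fusion livers 6 to 9. Control 3 was far above the other controls, and all fusion livers were below all controls (log2 fold change -2.39, SE 0.32, adjusted p = 0.00112, edgeR). Cyp2c40 measured 86.6, 96.2, 103, 88.2 and 90.6 CPM in controls 1 to 5 and 14.1, 20.5, 28.1 and 58.8 CPM in fusion livers 6 to 9. The controls were tightly grouped, and fusion 9 was again nearest to them (log2 fold change -1.64, SE 0.33, adjusted p = 0.0099, edgeR). Cyp2c37 was 6.98 ± 6.46 CPM (SD, n = 5) in controls, with control 3 highest at 17.9 CPM, and 1.27 ± 0.532 CPM (SD, n = 4) in fusion livers (log2 fold change -2.46, adjusted p = 0.021), and its call was lost without fusion 7 or fusion 8 (adjusted p = 0.0622 and 0.0629).

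Cyp2c68, which stood at 237 CPM per kilobase of exon in controls and was second only to Cyp2d26 on that scale, was not called (log2 fold change -0.48, adjusted p = 0.128). The same held for Cyp2c67 (log2 fold change -0.58, adjusted p = 0.165). Values of these copies are uncertain, since 35.4% of the windows in Cyp2c69, 34.4% in Cyp2c40, 23.7% in Cyp2c67 and 19.8% in Cyp2c68 occur in another gene. Cyp2c70 has no shared window. Cyp2c23, listed in the embryo table under its older symbol Cyp2c44 and lying away from the cluster, was not called (log2 fold change -0.35).

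The upstream bases of 3 similar Cyp2c copies are shown because 2 of the genes fell and 1 was not called. The lines run from 250 to 101 bases before the RefSeq start (GRCm38.p6, minus strand, 5′ to 3′), with ATTAAC, the reverse complement of GTTAAT, a core bound by HNF1 factors, in capitals.
Cyp2c40 (chr19:39812915-39813064): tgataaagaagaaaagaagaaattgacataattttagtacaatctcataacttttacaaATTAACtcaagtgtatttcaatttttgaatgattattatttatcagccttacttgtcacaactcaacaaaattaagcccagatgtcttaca
Cyp2c69 (chr19:39886870-39887019): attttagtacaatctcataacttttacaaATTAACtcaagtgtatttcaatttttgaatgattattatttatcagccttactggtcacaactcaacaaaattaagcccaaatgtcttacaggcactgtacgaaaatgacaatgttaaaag
Cyp2c68 (chr19:39741202-39741351): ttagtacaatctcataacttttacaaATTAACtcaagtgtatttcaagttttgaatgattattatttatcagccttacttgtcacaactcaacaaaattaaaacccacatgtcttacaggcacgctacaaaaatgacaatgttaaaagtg
Cyp2c69, which fell, and Cyp2c68, which was not called, were 91.3% identical over 254 positions in a global alignment of the 250 bases. For Cyp2c40 and Cyp2c69, which both fell, 217 of 280 positions were identical (77.5%). End gaps from the offset between the windows counted as differences, so these shares do not rank the copies by likeness. All 3 carry ATTAAC, with its first base at -191 in Cyp2c40, -221 in Cyp2c69 and -224 in Cyp2c68, relative to the start.

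The Cyp2d genes, relatives of the human drug-metabolising CYP2D6, were lower for 3 of the 4 tested. Cyp2d26 (chr15:82790101-82794294) was the most abundant member per length, at 512 CPM per kilobase of exon in controls and 272 in fusion livers. It measured 839, 734, 1101, 891 and 1020.3 CPM in controls 1 to 5 and 449, 443, 395 and 659.6 CPM in fusion livers 6 to 9. The groups did not overlap, with fusion 9 nearest the controls (log2 fold change -0.93, SE 0.19, adjusted p = 0.00875, edgeR). Cyp2d9, a testosterone hydroxylase biased to males in adult liver, fell from 77.3 ± 22.8 CPM (SD, n = 5) to 29.6 ± 10.1 CPM (SD, n = 4), and Cyp2d10 from 124 ± 20.8 to 78.2 ± 9.53 CPM (log2 fold changes -1.41 and -0.69). Cyp2d22, the remaining one, was 50.2 ± 9.51 and 50.8 ± 5.84 CPM and was not called (adjusted p = 0.995). Shared windows made up 11.7% of Cyp2d10 and 7.91% of Cyp2d9.

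The Cyp2a region on chromosome 7 held genes of both directions. Cyp2a5 (chr7:26835305-26843548), the coumarin and nicotine hydroxylase, measured 126, 23.5, 22.8, 30.0 and 24.4 CPM in controls 1 to 5 and 428, 102, 175 and 138 CPM in fusion livers 6 to 9. Control 1 was above fusion 7, so the groups overlapped, and fusion 6 was the highest liver (log2 fold change 2.20, SE 0.59, adjusted p = 0.0323, edgeR). The call was lost when any 1 of controls 2 to 5 or fusion 6 or 8 was left out, with log2 fold changes from 1.60 to 2.28, and within the libraries of high ribosomal share (1.02, adjusted p = 0.167). Without control 1 it was called, at 3.06. Cyp2a4, a steroid hydroxylase whose coding sequence is very close to Cyp2a5, was not called (log2 fold change -0.46, adjusted p = 0.297), and Cyp2a12 fell (log2 fold change -1.11, adjusted p = 0.00737). Shared windows made up 12.1% of Cyp2a5 and 11.2% of Cyp2a4.

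The upstream bases of this pair are printed because they are almost the same while the calls differ. They run from 250 to 101 bases before the RefSeq start (GRCm38.p6, plus strand, 5′ to 3′), with GTTAAT in capitals.
Cyp2a5 (chr7:26835089-26835238): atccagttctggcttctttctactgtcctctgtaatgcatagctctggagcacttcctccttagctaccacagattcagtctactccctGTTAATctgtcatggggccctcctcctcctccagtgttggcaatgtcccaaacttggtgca
Cyp2a4 (chr7:26306942-26307091): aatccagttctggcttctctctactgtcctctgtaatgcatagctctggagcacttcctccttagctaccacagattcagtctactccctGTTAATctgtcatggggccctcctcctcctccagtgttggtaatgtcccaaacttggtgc
The 250 bases before the start were 97.6% identical over 251 positions of a global alignment, and both genes hold the letters. A direct test of the difference between the 2 genes was not made.

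Among the remaining family 2 genes, Cyp2j5 and Cyp2j9, which form epoxides of arachidonic acid, fell (log2 fold changes -1.44 and -1.65, adjusted p = 0.00146 and 0.0149), though the Cyp2j9 groups overlapped and its call was lost without fusion 6 (adjusted p = 0.0571). Their neighbour Cyp2j6 was not called (log2 fold change 0.23). Cyp2j9 was low, at 0.291 CPM per kilobase of exon in controls and 0.101 in fusion livers. It could be tested in only 5 of the 9 fits with 1 liver left out. Cyp2u1, a long-chain fatty acid hydroxylase, was 0.425 ± 0.205 CPM (SD, n = 5) in controls and 1.49 ± 0.445 CPM (SD, n = 4) in fusion livers, without overlap (log2 fold change 1.69, adjusted p = 0.00812). Its controls alone were too low for the filter on low counts. An annotated antisense gene, 4930534D22Rik, overlaps its exons, and whether the counting used strand is not given, so reads of the pair cannot be told apart. Among the embryo members, genes on the other strand also overlap exons of Cyp2a4 (Gm42375), Cyp2f2 (Gm15883), Cyp2s1 (Gm26707) and Cyp4f18 (Zfp961). Genes on the same strand overlap exons of Cyp2d9 (Gm27622 and Gm46501), Cyp2d10 (Gm27331), Cyp2d11 (Mir7684) and Cyp4v3 (Gm45753). Cyp2f2 was higher in every fusion liver than in every control but was not called (log2 fold change 0.53, adjusted p = 0.0721).

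**Figure D3:**
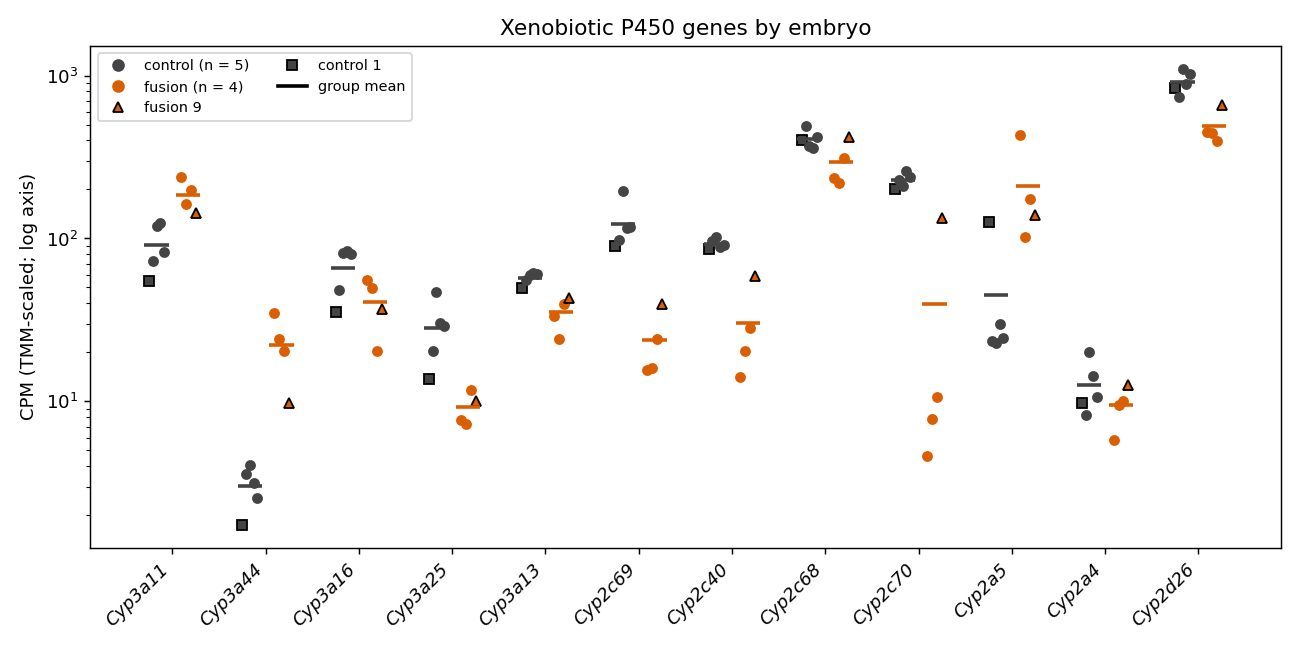
CPM on a log axis for 12 xenobiotic P450 genes in each control and fusion liver; bars are group means, triangles mark fusion 9 and squares control 1. Cyp3a11 and Cyp3a44 are higher and Cyp3a25 lower in all fusion livers, fusion 9 stands apart for Cyp2c70, and control 1 stands apart for Cyp2a5.

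The only steroid hormone member in the embryo table was Cyp17a1 (chr19:46667165-46673172), which makes the precursors of androgens. It measured 4.25, 2.21, 4.24, 4.49 and 3.74 CPM in controls 1 to 5 and 18.2, 21.8, 12.8 and 6.91 CPM in fusion livers 6 to 9. Fusion 9 was the lowest fusion liver and above all controls (log2 fold change 1.93, SE 0.30, adjusted p = 0.0025, edgeR). The adrenal markers Star and Hsd3b1 were not called, with Star at 0.660 to 1.08 CPM in all 9 livers and Hsd3b1 at 135 to 257 CPM, and the other 4 listed adrenal markers were not in the table. Cyp26b1, which clears retinoic acid, and Cyp20a1, an orphan enzyme, were not called (log2 fold changes -0.72 and -0.07). Without fusion 6, at 0.0626 CPM, the value for Cyp26b1 was -0.12.

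The letters AGGTCA were found in the 300-base promoter entries of 15 of 51 matched members (29.4%) and in 16.0% of all 27025 entries, on either strand. GTTAAT occurred in 13.7% of members and 7.20% of all entries. The core TGACG of the cyclic AMP response element occurred in 9.80% of members and 21.02% of all entries, and the full site TGACGTCA in none of the members and 1.88% of all. The CEBP letters TTGCGCAA occurred in none of the members and 0.185% of all. TGACG is contained in TGACGTCA, and cluster copies share sequence, so these shares describe the windows and are not independent observations.

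The called members were chosen over all livers, which make up both sets of libraries, so their sign within a set is not an independent test. A log2 fold change in both sets was available for 24 of the 25 called members, and the sign was the same in all 24. It was larger in size in the set of low ribosomal share for 21 of them. Fusion 9 was the fusion liver nearest the controls for 18 of the 25. These counts were not made over all called genes, so whether they are particular to P450 genes was not tested. The difference of the fusion to control contrast between the sets passed the test for 1 of 48 members, beside 0.188% of all genes. That member was Cyp27a1, at -0.58 in the libraries of high and -1.95 in those of low ribosomal share (adjusted p of the interaction = 0.0353, edgeR). For Cyp4a10 the values were -2.21 in the high and -3.77 in the low set, for Cyp7a1 -1.76 and -3.07, for Cyp8b1 -1.38 and -1.66, for Cyp3a44 2.61 and 3.17, and for Cyp4f39 3.53 and 3.01. With the set as a covariate 35 members were called, 28 lower and 7 higher, beside 32.6% of all genes, and all 25 calls were kept. Within the high set alone, 2 livers against 2, 14 members were lower and 4 higher, beside 9.8% and 10.2% of all genes. Of the 24 called members with a value there 9 lost their call, and 1 of the 25 was not tested there. The log2 fold change there was 1.64 for Cyp2u1 (1.69 over all livers), whereas it was smaller for Cyp39a1 (-0.43), Cyp3a13 (-0.35), Cyp3a25 (-0.64), Cyp27a1 (-0.58), Cyp2d26 (-0.60), Cyp2a5 (1.02), Cyp2c37 (-0.96) and Cyp4a32 (-1.53). Within the low set, where sex and genotype cannot be told apart, 31 members were lower and 7 higher, beside 11.2% and 10.6% of all genes. With sex as a covariate 23 of the 25 were kept, the exceptions being Cyp2c37 and Cyp2j9. The parts of fusion level, sex and library set in the position of fusion 9 were not tested, and its Prkaca level was the lowest of the 4.

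**Figure D4:**
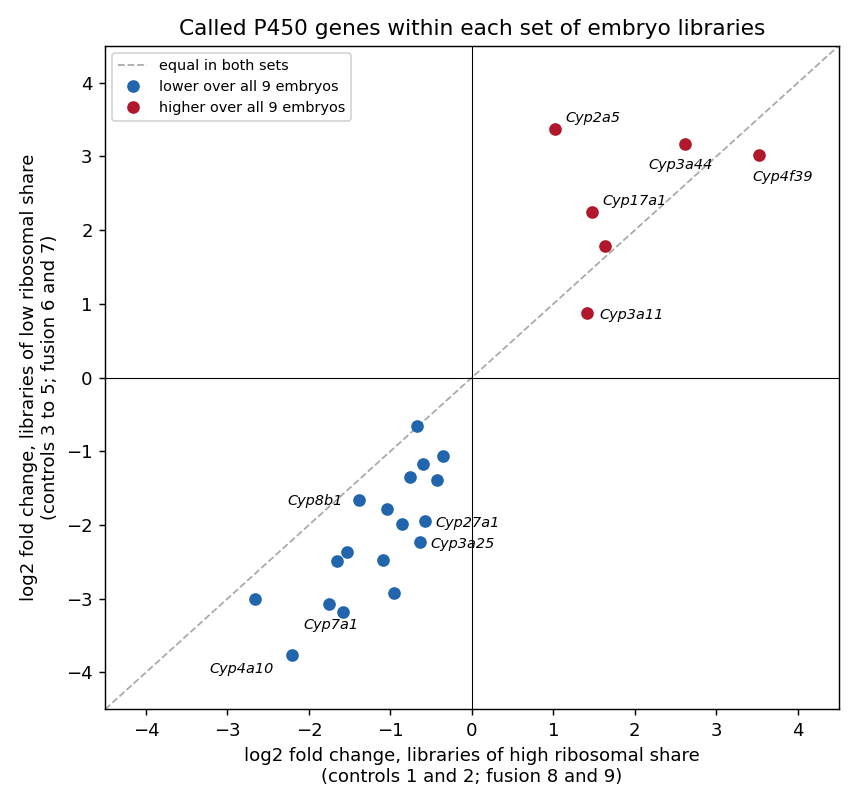
Log2 fold change of the 24 called P450 genes with a value in both sets of embryo libraries, the set of high ribosomal share on the x axis and that of low share on the y axis. All points keep their sign, and 21 of 24 lie farther from 0 on the y axis.

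Of 42 tested partners and regulators of P450 enzymes, 9 fell and 2 rose, where 6.81% and 5.99% of all genes were called lower and higher. The median log2 fold change was -0.05. Ppargc1a, a coactivator that is induced by PKA in liver, measured 7.68, 9.11, 6.64, 8.58 and 8.71 CPM in controls 1 to 5 and 77.7, 55.2, 72.6 and 42.6 CPM in fusion livers 6 to 9. The lowest fusion liver was far above the highest control (log2 fold change 2.92, SE 0.18, adjusted p = 8.45e-06, edgeR). Alas1, the first enzyme of haem synthesis in hepatocytes, rose from 51.0 ± 5.83 CPM (SD, n = 5) to 103 ± 14.3 CPM (SD, n = 4) (log2 fold change 1.00, adjusted p = 0.00109).

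Of the receptors, Nr1i3 measured 8.79, 11.5, 24.9, 18.5 and 12.1 CPM in controls 1 to 5 and 2.25, 2.59, 2.54 and 5.18 CPM in fusion livers 6 to 9. All fusion livers were below the lowest control (log2 fold change -2.32, SE 0.35, adjusted p = 0.00216, edgeR). Foxa2, a liver pioneer factor, fell from 34.9 ± 5.53 to 20.4 ± 5.89 CPM without overlap (log2 fold change -0.80, SE 0.19, adjusted p = 0.0189, edgeR). Nr1h4, the bile acid receptor, fell from 38.2 ± 7.79 to 24.4 ± 1.67 CPM and Cebpa, a liver transcription factor, from 199 ± 36.4 to 129 ± 25.1 CPM (log2 fold changes -0.66 and -0.65). Nr1i2, Ppara, Hnf4a and Ahr were not called (log2 fold changes 0.32, -0.52, 0.24 and 0.06, adjusted p = 0.0686, 0.0844, 0.552 and 0.833, edgeR). Nr1i2 was nevertheless higher in every fusion liver than in every control.

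Of the 9 other tested bile acid and sterol enzymes apart from Cyp51, which makes cholesterol, 4 fell and 0 rose. Akr1c6, a steroid dehydrogenase, went from 34.3 ± 14.1 to 4.68 ± 6.62 CPM, and Hsd3b7, Baat and Acox2 fell by 0.75, 0.69 and 0.53 on the log2 scale. Ephx1, the epoxide hydrolase that acts on P450 products, fell from 36.1 ± 4.76 to 11.8 ± 2.47 CPM (adjusted p = 0.000164), while Ephx2 was not called. Por and Cyb5a, the electron donors, were not called (log2 fold changes 0.02 and -0.04).

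Markers of other cell types moved beside these genes. The 5 measured cholangiocyte markers summed to 49.4 to 74.05 CPM in controls and 11.4 to 41.8 CPM in fusion livers, and Krt7, Krt19 and Epcam were called lower. The 6 macrophage markers summed to 596 to 701 and 507 to 554 CPM with no member called, and 2 of 6 stellate and fibroblast markers were lower. Of the 10 hepatocyte markers 1 was higher (Afp) and 1 lower (Apoa1), and the only measured pancreas marker, Cela1, was higher. No endothelial, intestine or kidney marker was called. The 7 measured erythroid markers summed to 3237 to 5590 CPM in controls and 3719 to 4928 CPM in fusion livers. Their part in the P450 results was not tested.

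In the FL8 tumours no member was called between palbociclib and vehicle. By limma 0 of 52 members had an adjusted p under 0.05, beside 0.0% of the 12829 genes tested, and edgeR and DESeq2 on the recovered reads also called 0 members. At an unadjusted p under 0.05 there were 10 members, 9 higher and 1 lower, beside 4.57% of all genes, 3.73% higher and 0.842% lower. The groups overlapped for all 52 members, so 0 did not overlap, beside 0.935% of all genes. The median log2 fold change was 0.42 over members and 0.14 over all genes, and 42 of 52 members were above 0, as were 68.8% of all genes. By edgeR on recovered reads 34 of 52 were above 0 (44.4% of all genes). Without vehicle tumour 1 the median over members was 0.14 and that over all genes 0.03, with 33 of 52 above 0 (54.4% of all genes). In that fit 7 members were higher and 4 lower at an unadjusted p under 0.05 (limma). The share of all genes at that cutoff was not counted there. Vehicle tumour 1 had the lowest CPM of all 10 tumours for 36 of the 52 members.

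The xenobiotic genes carried the smallest p-values. Cyp2a12 measured 4.22, 11.9, 19.6, 37.6 and 19.96 CPM in vehicle tumours 1 to 5 and 23.5, 64.0, 36.6, 53.9 and 40.4 CPM in palbociclib tumours 1 to 5. Vehicle tumour 4 was inside the palbociclib range and the other 4 vehicle tumours below it (log2 fold change 1.38, SE 0.43, unadjusted p = 0.00483, adjusted p = 0.953, limma). Cyp2a22 and Cyp2r1, the vitamin D hydroxylase of the liver, came next, at 1.84 ± 1.28 and 4.91 ± 1.71 CPM (SD, n = 5 each) and at 7.37 ± 3.02 and 16.6 ± 7.63 CPM in vehicle and palbociclib tumours (log2 fold changes 1.15 and 1.07). The lowest vehicle value was tumour 1 for both, and without it the log2 fold changes of Cyp2a12, Cyp2a22 and Cyp2r1 were 0.98, 0.90 and 0.79.

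Cyp2a4 had the lowest p among members with a negative value, at 74.7, 296, 356, 138 and 367 CPM in vehicle tumours 1 to 5 and 158, 38.9, 71.4, 57.9 and 202 CPM in palbociclib tumours 1 to 5. Vehicle tumours 1 and 4 were within the palbociclib range and the other 3 vehicle tumours above it (log2 fold change -1.25, SE 0.48, unadjusted p = 0.018, adjusted p = 0.953, limma). Without vehicle tumour 1 the log2 fold change of Cyp2a4 was -1.61 (unadjusted p = 0.00176, limma). Cyp2b13 and Cyp4f18 followed it in that direction, with log2 fold changes of -0.36 and -0.42 and means of 2.69 ± 1.18 and 2.09 ± 2.01 CPM in vehicle tumours. Without vehicle tumour 1, at 5.52 CPM, Cyp4f18 was at -0.094, and without vehicle tumour 3 or palbociclib tumour 5 Cyp2b13 was at -0.23 and -0.21. Among the 9 higher members at an unadjusted p under 0.05 were 5 of the 12 in the Cyp2c cluster, namely Cyp2c29, Cyp2c50, Cyp2c55, Cyp2c69 and Cyp2c70. Without vehicle tumour 1, 3 of these 5 (Cyp2c55, Cyp2c69 and Cyp2c70) stayed at an unadjusted p under 0.05, and the log2 fold changes of Cyp2c29 and Cyp2c50 went from 0.78 and 0.86 to 0.43 and 0.59. The means of Cyp2c69 were 0.839 CPM with vehicle and 3.04 CPM with palbociclib, so it passed the minimum of 1 CPM through the palbociclib tumours. Cyp2c70 measured 18.4, 134, 122, 234 and 161 CPM in vehicle tumours 1 to 5 and 209.9, 248, 262, 255 and 172 CPM in palbociclib tumours 1 to 5. Apart from vehicle tumour 4 the vehicle tumours were below all palbociclib tumours (log2 fold change 1.13, SE 0.48, unadjusted p = 0.0315, adjusted p = 0.953, limma). Without vehicle tumour 1 the log2 fold change of Cyp2c70 was 0.52.

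Cyp2a5 and Cyp2d10 had the highest levels per length in both tumour groups, at 464 and 404 CPM per kilobase of exon in vehicle and 379 and 367 in palbociclib tumours. Without vehicle tumour 5 the vehicle values were 296 and 387, so the order of the 2 genes turned. Cyp2a5 measured 480.3, 668, 878, 429 and 2355 CPM in vehicle tumours 1 to 5 and 1107, 472, 465, 440.2 and 1442 CPM in palbociclib tumours 1 to 5. Vehicle tumour 5, the shallowest library, was the highest of the 10 (log2 fold change -0.18, SE 0.45, unadjusted p = 0.701, adjusted p = 0.97, limma). Cyp3a11 was 256 ± 147 CPM (SD, n = 5) with vehicle and 355 ± 65.5 CPM (SD, n = 5) with palbociclib (log2 fold change 0.70, and 0.28 without vehicle tumour 1). Cyp1a1, a target of the dioxin receptor, was 17.5 ± 14.2 and 15.4 ± 9.26 CPM (log2 fold change -0.14).

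The bile acid genes were present and not called. Cyp27a1 led them per length, at 112 CPM per kilobase of exon with vehicle and 116 with palbociclib. Its level was 243 ± 129 CPM (SD, n = 5) with vehicle and 253 ± 62.7 CPM (SD, n = 5) with palbociclib. Cyp7a1 measured 2.54, 3.65, 6.56, 3.84 and 3.38 CPM in vehicle tumours 1 to 5 and 10.7, 5.06, 10.3, 4.96 and 3.10 CPM in palbociclib tumours 1 to 5. Palbociclib tumours 1 and 3 were above the vehicle range and the other 3 within it (log2 fold change 0.58, SE 0.36, unadjusted p = 0.123, adjusted p = 0.953, limma). Cyp8b1 ranged from 0.768 CPM in vehicle tumour 1 to 28.3 CPM in vehicle tumour 2, and from 8.33 to 14.1 CPM with palbociclib (log2 fold change -0.14). Cyp39a1 and Cyp7b1 had log2 fold changes of 0.41 and 0.20. Without vehicle tumour 1 Cyp39a1 was at 0.081, Cyp7b1 at -0.20, Cyp8b1 at -0.84 and Cyp27a1 at -0.14.

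Cyp4v3 led family 4 per length in the tumours, at 27.3 and 32.7 CPM per kilobase of exon. It stood at 104 ± 34.8 and 124 ± 28.0 CPM (log2 fold change 0.32). Without vehicle tumour 1, at 42.3 CPM, the log2 fold change was 0.027. Cyp4a10 and Cyp4a14 were under the minimum, at means of 0.684 and 0.353 CPM over the 10 tumours. So were Cyp4f39 at 0.104 CPM and Cyp3a44 at 0.178 CPM. In all, 12 embryo members were under the tumour minimum, among them Cyp2f2, at 32.8 ± 7.79 CPM (SD, n = 5) in control livers and a mean of 0.404 CPM in the tumours. Embryo and tumour values were scaled in separate tables and were not tested against each other.

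The steroid hormone genes Cyp21a1, Cyp17a1 and Cyp11a1 passed the minimum. Cyp21a1, which is needed for the steroid hormones of the adrenal cortex, measured 14.2, 40.2, 51.0, 38.9 and 30.1 CPM in vehicle tumours 1 to 5 and 88.7, 66.3, 95.4, 25.5 and 112 CPM in palbociclib tumours 1 to 5. Palbociclib tumour 4 was within the vehicle range and the other 4 above it (log2 fold change 1.09, SE 0.39, unadjusted p = 0.0122, adjusted p = 0.953, limma). Shared windows with Cyp21a2-ps, a pseudogene, made up 5.08% of Cyp21a1, and the antisense gene Tnxa overlaps its exons. Cyp17a1 was 9.32 ± 2.70 and 9.64 ± 6.06 CPM (log2 fold change -0.08), Cyp11a1 stayed between 0 and 2.53 CPM, and Cyp20a1 was 14.4 ± 2.57 and 18.4 ± 3.15 CPM. Of the partners and regulators 0 of 42 tested were called, and 0 had an unadjusted p under 0.05.

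**Figure D5:**
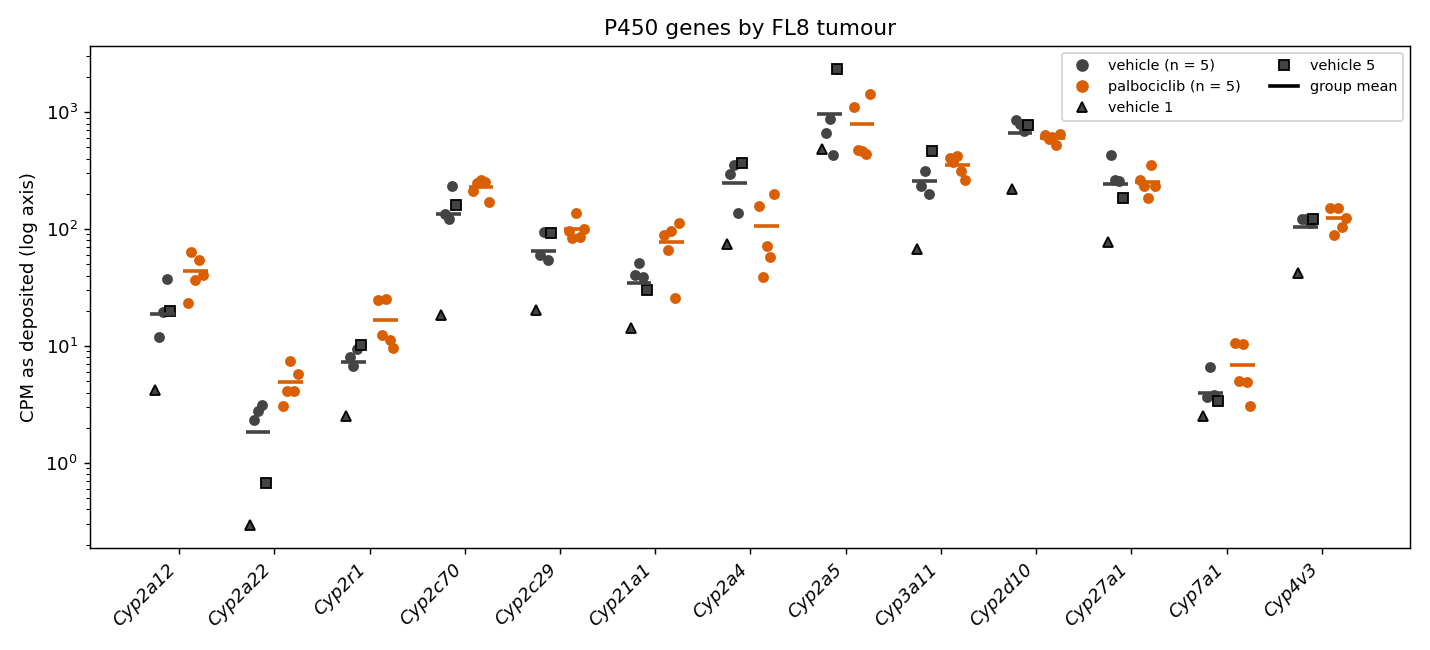
CPM on a log axis for 13 P450 genes in each vehicle and palbociclib tumour; bars are group means, triangles mark vehicle tumour 1 and squares vehicle tumour 5. The groups overlap for every gene shown; vehicle tumour 1 is the lowest of the 10 for Cyp2a12 and Cyp2c70, and vehicle tumour 5 the highest for Cyp2a5.

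Markers of other cells varied between the tumours. Erythroid markers summed to 1345 to 96007 CPM in vehicle and 1782 to 8467 CPM in palbociclib tumours. Hepatocyte markers summed to 40536 CPM in vehicle tumour 1 and 97511 to 113850 CPM in the other 4 vehicle tumours, and to 82327 to 128374 CPM with palbociclib. Macrophage markers were highest in vehicle tumour 1, at 348 CPM against 6.09 to 60.4 CPM in the other 9. Stellate and fibroblast markers were 239.7 CPM there and 39.7 to 190 CPM in the other 9. No tested marker of the 10 cell type lists was called, and their part in the tumour values was not tested.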

How the data were processed

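RNA was sequenced from 9 embryonic livers and 10 FL8 tumours. The embryo counts per gene symbol come from poly-A libraries and were made by the authors with STAR 2.5.1b as aligner, per the submitters' processing notes, and deposited without normalization. The notes name for the embryos also DESeq2, and for the tumours cutadapt 2.10, HISAT2, featureCounts, DESeq2 and R 4.1.2, both with mm10. The strand setting is not given in the sources used here. The tumour files hold CPM as deposited, and 100.0% of the tumour values were whole reads (within 0.01 read) once scaled. The smallest row sum in the embryo table was 47 counts, so rarer genes are not analysed here. Its 9 further value columns were not used.

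Embryo counts were scaled by TMM to CPM and tested with edgeR 4.0.16 (quasi-likelihood, filterByExpr). Tumour CPM was tested with limma 3.58.1, with a trend, on log2(CPM + 1) at a mean of at least 1 CPM, a scale that understates changes of low genes. Tests were two-sided and adjusted by Benjamini-Hochberg over all genes, with 0.05 as threshold. DESeq2 1.42.0, other scalings, filters, covariates and left-out samples were alternatives (R 4.3.3). The scripts were tested on simulated data. Library sets follow the ribosomal protein gene share, not a label. Shared windows are 100-base stretches of annotated exons (GENCODE M21, mm10) found in another gene. Promoters are RefSeq entries (GRCm38.p6), matched by symbol for 51 of 64 members. Vehicle and palbociclib tumours share replicate numbers, and the numbers were not taken as pairs.

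The members and lists were chosen with earlier results of these data known. Named genes were the 12 largest embryo falls and all 6 rises, the highest member of each role, a list of 12 well-known P450 genes, and the 3 smallest tumour p-values in each direction. Cyp2a12, Cyp2c70, Cyp2d9, Cyp2d10, Cyp2j5 and Cyp3a13 in the embryos were named after their values were seen, as were partners beyond the 3 largest changes in each direction and members cited by range, cluster or lack of a call.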

Additional observations from a re-analysis of the deposited data

Results flagged for a closer look

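Of 96 groups of values screened, 9 held 1 library far from the rest, where chance gives about 1 in 20 groups (4.8 here). In control livers these were Cyp2a5 in control 1 at 126 CPM (others 22.8 to 30.0), Cyp2c69 in control 3 at 195 CPM (90.4 to 117) and Cyp4f39 in control 5 at 0.827 CPM (0.276 to 0.424). In fusion livers they were Cyp2c70 in fusion 9 at 134 CPM (4.65 to 10.6), Cyp7a1 in fusion 9 at 14.0 CPM (2.53 to 4.38) and Cyp7b1 in fusion 6 at 0.334 CPM (0.760 to 0.846). In vehicle tumours they were Cyp2a5 in tumour 5 at 2355 CPM (429 to 878), Cyp4f18 in tumour 1 at 5.52 CPM (0.380 to 1.86) and Cyp4v3 in tumour 1 at 42.3 CPM (113 to 123). The difference between fusion and control livers in Cyp27a1 was larger in the libraries of low than of high ribosomal share (adjusted p of the interaction = 0.0353, edgeR), and in the low set sex and genotype cannot be told apart.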

How the results depend on the processing

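The 25 called embryo members were refitted 395 times over the alternatives. The call held in 374 fits, was lost in 21 and reversed in 0, and 14 members kept it in every fit. Calls were lost within the libraries of high ribosomal share (Cyp27a1, Cyp2a5, Cyp2c37, Cyp2d26, Cyp2u1, Cyp39a1, Cyp3a13, Cyp3a25 and Cyp4a32), with sex as a covariate (Cyp2c37 and Cyp2j9) and on leaving out single livers (Cyp2a5, Cyp2c37, Cyp2j9 and Cyp3a11). Within the libraries of low ribosomal share, where sex and genotype cannot be told apart, 31 members were lower (19 over all livers) and 7 higher (6), beside 11.2% and 10.6% of all genes. Leaving out 1 liver gave 18 to 23 lower and 4 to 7 higher calls, beside 969 to 1581 calls over all genes (1704 with all livers). Cyp2c70 gained its call in 5 alternatives. Calls among partners and regulators were 11, 21 with the library set as covariate and 18 within the low set. Over all genes the calls were 1704, 4345 and 2950 in these fits. With 1 liver left out, 7 to 11 partners and regulators were called. There were 7 without control 3 and 7 without fusion 8, where 969 and 987 of all genes were called. Members not called changed sign in some fits: in embryos Cyp20a1 at 0.066 (set covariate), 0.20 (sex), 0.23 (high set) and -0.38 to 0.089 (1 liver out), and Cyp7b1 at 0.082 (sex), 0.78 (high set) and -0.40 to 0.087. In tumours, without vehicle 1 and 5 together (chosen after seeing the data), Cyp1a1 was 0.048, Cyp27a1 -0.32, Cyp2a5 0.12 and Cyp4f18 0.015. Cyp7b1 was -0.19 by DESeq2 and -0.16 by edgeR on recovered reads, and Cyp8b1 0.0096 at a pseudocount of 0.1. With 1 tumour left out, Cyp17a1 spanned -0.36 to 0.076, Cyp1a1 -0.38 to 0.24, Cyp27a1 -0.14 to 0.47, Cyp2a5 -0.44 to 0.22, Cyp7b1 -0.20 to 0.56 and Cyp8b1 -0.84 to 0.17. The causes were not tested. No alternative called a tumour member. With the replicate block 0 members were called, same-numbered tumours correlated at -0.32 to 0.00, and 0 of 5 numbers correlated best with their own. TMM moved the median of all tumour genes from 0.14 to 0.01 and that of the members from 0.42 to 0.30. There 40 of 52 members were above 0 (51.2% of all genes). Vehicle tumour 5, with 2955729 reads, limits low values.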

Other observations

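P450 symbols outside the naming pattern moved as well. Cyp2d37-ps, a pseudogene beside the Cyp2d genes, stood at 33.5 ± 7.19 CPM in the 5 control livers and 6.37 ± 1.26 CPM in the 4 fusion livers (mean ± SD), without overlap (log2 fold change -2.41, adjusted p = 4.85e-05, edgeR). Cyp4a12b, a fatty acid hydroxylase biased to males in adult tissue, was 1.09 ± 0.490 and 4.48 ± 1.58 CPM, also without overlap (log2 fold change 2.14, adjusted p = 0.00254, edgeR), whereas Cyp4a12a was not called (15.8 ± 9.34 and 18.1 ± 6.08 CPM). The cholesterol synthesis enzyme Cyp51 was not called in either experiment, at 245 ± 110 CPM in control and 225 ± 47.3 CPM in fusion livers. In the tumours the pseudogene Cyp2d41-ps stood at 489 CPM with vehicle and 408 CPM with palbociclib, and Cyp2d37-ps at 78.3 and 69.1 CPM, and neither was called.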
